A study of Rattus norvegicus with 30 samples.

Results

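Glenn surgery was compared with sham surgery in rats on a diet with an excess of vitamin A. The comparison takes the 5 Glenn and the 5 sham libraries that the labels assign to that diet, 10 of the 30 libraries of the series. The Glenn operation connects the superior vena cava with a pulmonary artery, and the lung on that side is then perfused by venous blood that bypassed the liver. Wild-type rats (Rattus norvegicus) had either operation and were then kept on a control, deficient or excess vitamin A diet, which gives 6 groups of 5 libraries. Lungs were taken 3 weeks after the operation, and CD31+ cells were sorted with microbeads. CD31, the product of Pecam1, is an adhesion protein that marks endothelial cells and platelets. The Glenn and sham groups described here share the genotype, the excess diet, the time after surgery and the sort. They differ by the operation and, in Glenn libraries 3 to 5, also by the series of library names described below. Strain, age, sex and the vitamin A content of the diets are not given in the sources used here, nor is it said whether each library is from a separate animal. The p-values therefore measure the spread between these libraries, which may in part be technical.

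Lung endothelial cells receive BMP9 and BMP10 from the blood, and BMP9 is made mainly in the liver. Both ligands bind ALK1 (Acvrl1) with the type II receptor BMPR2 and the coreceptor endoglin, and SMAD1, SMAD5 and SMAD9 then carry the signal to the nucleus. Loss of ALK1 or endoglin causes hereditary haemorrhagic telangiectasia, in which arteriovenous malformations form, and such malformations can also form in the lungs of patients after a Glenn operation. The liver is the main store of vitamin A, which cells oxidise to retinoic acid, the ligand of the retinoic acid receptors.

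The 10 libraries held 31.78 to 50.46 M estimated counts (median 40.75 M), with 17138 to 18149 genes detected. The 5 sham libraries and Glenn libraries 1 and 2 have names in the 300s, and Glenn libraries 3 to 5 have names in the range 598 to 606. The major histocompatibility gene RT1-CE16 split the libraries in the same way, at 25.7 to 44.4 CPM (counts scaled to library size) in the former 7 and 436 to 556 CPM in the latter 3. Name series and RT1-CE16 level therefore cannot be told apart within these 10 libraries, and no sham library shares either with Glenn libraries 3 to 5. By the Y-linked gene Ddx3y, sham libraries 1 and 5 and Glenn libraries 1, 4 and 5 were male. On the first principal component of the 10 libraries (42.8% of the variance) sham libraries lay at -38.28 to -25.8 and Glenn libraries at 17.88 to 47.08. The name series was a term of the fit of all 30 libraries, and values from libraries named in the 300s alone are given where they end a call. Both control-diet groups and the sham excess group hold only names in the 300s. The term is therefore estimated from the other groups, which hold both series. Because of this term a log2 change can differ in size, and for a few genes in sign, from the ratio of the group means printed beside it.

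After Glenn surgery, 7 of 10 BMP target genes and 6 of 10 markers of aerocyte capillaries were lower. Of 11 hyaluronan genes 4 were lower, among them Hyal1, Hyal2 and Hyal3, and 2 were higher. Also higher were 13 of 18 tip-cell genes, 10 of 20 collagen genes and 11 of 12 pericyte and smooth muscle markers. Of 16171 genes tested, 3549 (21.9%) differed between Glenn and sham on the excess diet, 1868 (11.6%) of them higher and 1681 (10.4%) lower at an adjusted p under 0.05 in edgeR's quasi-likelihood test. The median log2 change over all genes tested was -0.02. At least a 2-fold difference was found in 1149 of these genes (7.11%), with 810 higher (5.01%) and 339 lower (2.1%). The 5 Glenn libraries did not overlap the 5 sham libraries in 2642 genes (16.3%), of which 1389 (8.59%) were higher and 1253 (7.75%) lower after Glenn surgery. In a fit of the libraries named in the 300s, 7 of them on the excess diet, 2270 genes passed the threshold. The gene lists used here overlap in some genes. They were chosen with earlier results of these data known, so their shares are no independent test.

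The genes with the smallest p-values span several functions. Vegfa (ENSRNOG00000019598), the main vascular endothelial growth factor, and Hyal3, a hyaluronidase-like gene, led the fall. Hyal3 was at 318, 259, 286, 327 and 266 CPM in the sham libraries and at 102, 110.4, 81.4, 92.6 and 98.1 CPM in the Glenn libraries, with no overlap (log2 change -1.56, SE 0.09, edgeR adjusted p 7.54e-13). Azin1, an inhibitor of antizyme that raises polyamine levels, fell from 444 ± 34.9 to 148 ± 12 CPM (SD, n = 5 each, here and below; log2 change -1.57, SE 0.10, edgeR adjusted p 8.18e-12). Tigar, a fructose bisphosphatase that opposes glycolysis, fell from 49.2 ± 8.36 to 15 ± 1.25 CPM (log2 change -1.79, SE 0.13, edgeR adjusted p 2.62e-11). Pcdh1, a protocadherin, had a log2 change of -1.6 and Fmo1, a flavin monooxygenase, one of -2.38.

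Clic2, a chloride channel family member, rose most clearly by p-value. It stood at 28.5, 32.1, 35.5, 30.5 and 23.7 CPM in the sham libraries and at 182, 178, 205, 186 and 235 CPM in the Glenn libraries, and the groups stood far apart (log2 change 2.5, SE 0.14, edgeR adjusted p 7.54e-13). Prnd, which encodes the prion-like protein doppel found on growing vessels, was very low after sham surgery. It stood at 0.475, 0.265, 1.06, 0.877 and 0.468 CPM in the sham libraries and at 49.4, 50.8, 32.6, 46.8 and 53.1 CPM in the Glenn libraries (log2 change 6.21, SE 0.38, edgeR adjusted p 5.99e-12). Scarb1, the high density lipoprotein receptor, rose from 184 ± 16.2 to 618 ± 97.2 CPM (log2 change 1.8, SE 0.14, edgeR adjusted p 2.84e-10), and Lbp, the lipopolysaccharide binding protein, from 41.7 ± 1.18 to 97.0 ± 5.99 CPM (log2 change 1.35, SE 0.10, edgeR adjusted p 6.88e-11). Adgrg1, an adhesion receptor, had a log2 change of 1.57, and Zfp521, a zinc finger transcription factor, one of 1.22. Each of these genes kept its call in every alternative analysis that gave a value.

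Large changes were frequent in genes that were low in one group. Igfbp3, a carrier of insulin-like growth factors, was at 7.31, 10.5, 7.49, 15.1 and 8.22 CPM in the sham libraries and at 409, 483, 399.7, 317 and 888 CPM in the Glenn libraries (log2 change 5.4, SE 0.54, edgeR adjusted p 5.53e-08), so that the lowest Glenn library was many times above the highest sham library. Tacr1, the substance P receptor, ranged from 0.0207 to 0.877 CPM in sham and 9.18 to 28.2 CPM in Glenn libraries (log2 change 5.57, SE 0.52, edgeR adjusted p 7.97e-09). Spp1, the matricellular protein osteopontin, was at 0.124, 0.736, 0.191, 0.387 and 0.790 CPM in the sham libraries and at 20.4, 11.6, 1.49, 4.65 and 19.6 CPM in the Glenn libraries (log2 change 5.44, SE 0.76, edgeR adjusted p 4.9e-06), with a wide spread among Glenn libraries. In the other direction, Serpina1, a protease inhibitor, fell from 139 ± 36.5 to 8.61 ± 1.63 CPM (log2 change -4.0, SE 0.26, edgeR adjusted p 1.62e-11). Glp1r, the receptor of glucagon-like peptide 1, was at 467, 481, 360.3, 398 and 419 CPM in the sham libraries and at 68.5, 50.5, 35.9, 48.6 and 50.2 CPM in the Glenn libraries (log2 change -2.99, SE 0.28, edgeR adjusted p 7.7e-09), and no library of either group came near the other. Il1a, an interleukin, had a log2 change of -3.37, and Ntrk2, the BDNF receptor, one of -4.24.

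**Figure D1:**
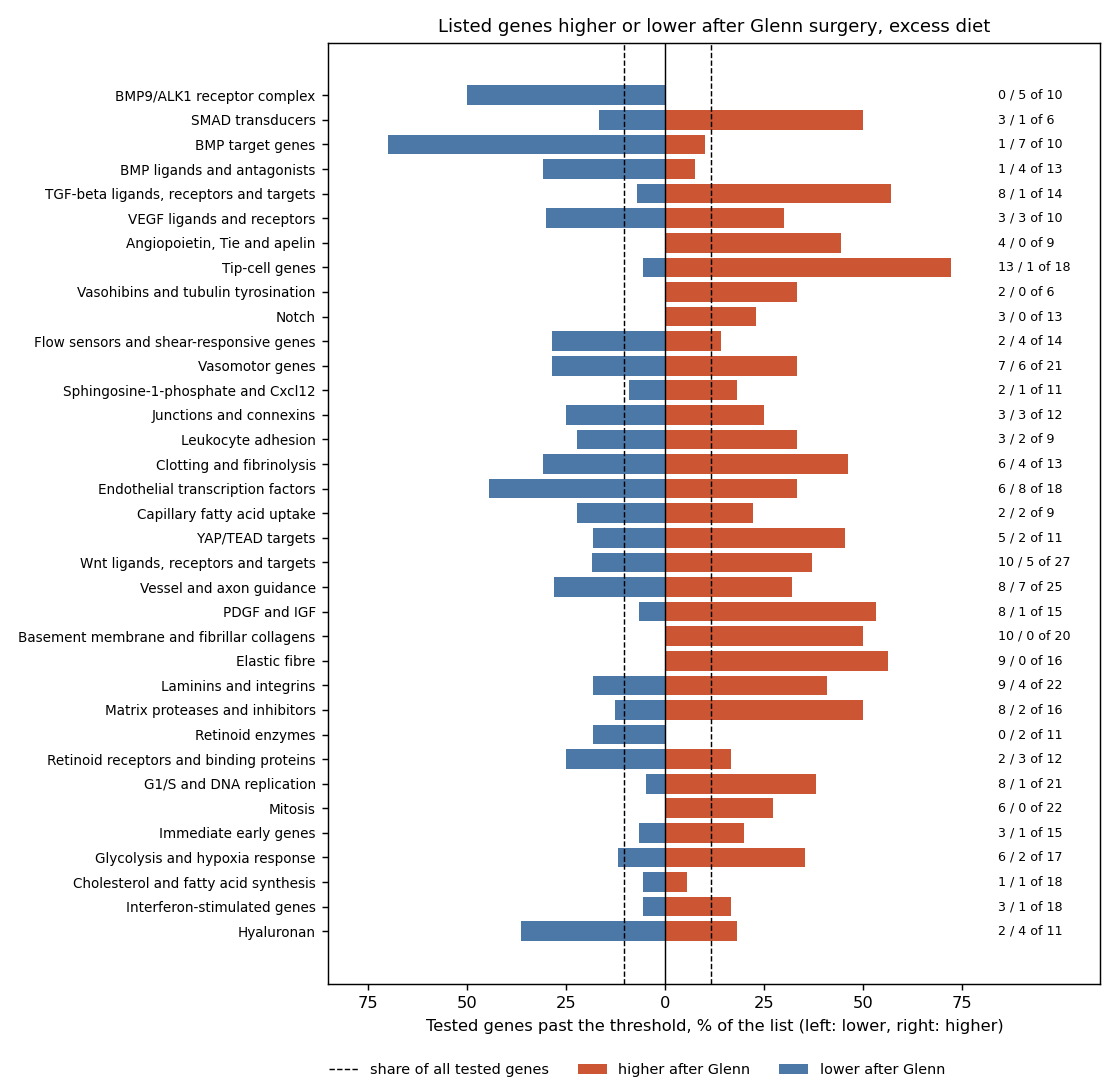
Share of the tested genes of each pathway list (cell-type marker lists are not drawn) that passed the threshold after Glenn surgery on the excess diet, in percent of the list (red and to the right, higher; blue and to the left, lower). Counts at the right are higher / lower of tested, dashed lines mark the shares of all 16171 tested genes (11.6% higher, 10.4% lower), and the longest bars drawn are those of BMP target genes to the left (7 of 10) and tip-cell genes to the right (13 of 18). The lists were chosen with earlier results of these data known.

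Of 10 tested genes of the BMP9/ALK1 receptor complex 5 were lower and 0 higher, with a median log2 change of -0.55. Tmem100, a BMP9-induced membrane protein of lung endothelium, was at 2599.8, 2406, 2659.8, 2685 and 2490.1 CPM in the sham libraries and at 796, 499, 551, 549.6 and 352 CPM in the Glenn libraries (log2 change -2.17, SE 0.19, edgeR adjusted p 2.55e-09). Every Glenn library was at less than the lowest sham value. Eng, which encodes endoglin, stood at 2449, 2381, 2445, 2349.9 and 2542 CPM in the sham libraries and at 1329.9, 908, 749, 782 and 821 CPM in the Glenn libraries (log2 change -1.25, SE 0.13, edgeR adjusted p 3.45e-08). Acvrl1 stood at 1784, 1746, 1603, 1691 and 1738 CPM in the sham libraries and at 1042, 739.6, 583, 676 and 653 CPM in the Glenn libraries (log2 change -1.08, SE 0.13, edgeR adjusted p 3.71e-07). In both genes Glenn library 1 lay highest of its group and still below all sham libraries. Bmpr2, the type II receptor mutated in heritable pulmonary hypertension, fell from 655 ± 46.8 to 284 ± 29.0 CPM (log2 change -1.17, SE 0.11, edgeR adjusted p 5.67e-09). Acvr2b, an activin type II receptor, had overlapping libraries (log2 change -0.53, edgeR adjusted p 0.0216), and its call was lost among libraries named in the 300s (-0.57, edgeR adjusted p 0.0563). It was also lost without Glenn library 1 or 2 (edgeR adjusted p up to 0.0755) and in 4 other alternatives. The ALK3 receptor Bmpr1a (0.18), Acvr2a (-0.09), the BMP-binding protein Bmper (0.60) and the ligand genes Gdf2 (-0.40) and Bmp10 (-0.58) did not pass the threshold. Gdf2, the gene of BMP9, was at 0.556 to 1.99 CPM in sham and 0.602 to 1.65 CPM in Glenn libraries. In bulk samples such as these, fewer cells of a type and less RNA per cell cannot be told apart. Markers of general capillary cells, which express these receptors, summed to 10698 to 12380.0 CPM in sham and 4882 to 7993 CPM in Glenn libraries. Plvap, a gene with values given below, held a large part of this sum. Of the 9 markers 4 were lower and 5 did not pass the threshold. The part of these cells in the receptor results was not tested.

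The SMAD genes of the pathway moved in opposite directions. Smad1 (ENSRNOG00000018483) was at 83.2, 86.1, 85.8, 85.8 and 83.7 CPM in the sham libraries and at 242, 289.6, 290.1, 304 and 304 CPM in the Glenn libraries (log2 change 1.61, SE 0.12, edgeR adjusted p 7.82e-11), more than 2-fold higher in every Glenn library. Smad9 fell in the same libraries, from 42.0, 37.7, 46.6, 44.3 and 42.6 CPM to 15, 21.1, 27.1, 27.7 and 23.3 CPM (log2 change -1.18, SE 0.17, edgeR adjusted p 4.9e-06), without overlap. Smad5 (log2 change 0.31) and Smad3, a transducer of TGF-beta (0.81), were higher with edgeR adjusted p-values of 0.00745 and 0.00151. Among libraries named in the 300s, Smad5 had an edgeR adjusted p of 0.0657, and both lost their call in a fit of the 10 libraries with the name series as a term. Smad2 (0.10) and the common partner Smad4 (0.08) did not pass the threshold. In total 3 of 6 SMAD transducers were higher and 1 lower (median log2 change 0.21), and in that fit of the 10 libraries 1 was higher.

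Genes that BMP signalling induces were mostly lower, 7 of 10 against 1 higher, with a median log2 change of -0.50. Smad6 (ENSRNOG00000009173), an inhibitory SMAD and feedback target, was at 1074, 1006, 1147, 970.2 and 942 CPM in the sham libraries and at 232, 127, 99.4, 119.7 and 105 CPM in the Glenn libraries (log2 change -2.76, SE 0.20, edgeR adjusted p 9.35e-11). Its Glenn values stayed far under the sham range, with library 1 the highest. Smad7, the other inhibitory SMAD, ranged from 78.9 to 157 CPM in sham and 19.7 to 46.2 CPM in Glenn libraries (log2 change -2.27, SE 0.27, edgeR adjusted p 5.34e-07). Id1, an inhibitor of differentiation that is a direct target, stood at 228, 232, 229, 236 and 198 CPM in the sham libraries and at 101, 99.4, 79.9, 81.0 and 126 CPM in the Glenn libraries (log2 change -1.27, SE 0.12, edgeR adjusted p 7.73e-09), again with no overlap. Id3 (-0.59), Id2 (-0.32) and Bambi, a decoy receptor (-0.44), were lower with overlapping libraries. Their edgeR adjusted p-values were 0.00336, 0.0182 and 0.00927, and each lost its call in 1 or more alternatives: Id3 in the fit of the 10 libraries with the name series, Bambi and Id2 without Glenn library 2 (edgeR adjusted p 0.0529 and 0.0747), and Id2 in 4 further fits. Atoh8, a helix-loop-helix factor, fell without overlap (log2 change -0.56, SE 0.15, edgeR adjusted p 0.00496). The exception was Hey1, a repressor shared with Notch signalling, which rose with overlapping libraries from 186 ± 14.6 to 268 ± 61.9 CPM (log2 change 0.63, SE 0.14, edgeR adjusted p 0.00119). Hey2 (0.52) and Id4 (0.09) did not pass the threshold.

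Among BMP ligands and their antagonists, 4 of 13 genes were lower and 1 higher (median log2 change -0.16). Bmp6, a ligand made by endothelial cells, was at 348, 386, 436, 387 and 429 CPM in the sham libraries and at 298, 241, 168, 241 and 189 CPM in the Glenn libraries (log2 change -0.64, SE 0.10, edgeR adjusted p 3.59e-05). Bmp2 fell from 26.8, 19.4, 19.6, 20.3 and 21.3 CPM to 6.61, 12.3, 13.1, 15 and 11.2 CPM (log2 change -1.16, SE 0.19, edgeR adjusted p 2.44e-05). Nog, the antagonist noggin, fell from 3.10, 3.15, 3.73, 4.8 and 3.63 CPM to 1.16, 0.755, 0.713, 0.564 and 1.12 CPM (log2 change -1.94, SE 0.28, edgeR adjusted p 6.31e-06). None of these 3 genes overlapped between the groups. Fst, which encodes follistatin, was lower (-0.90, edgeR adjusted p 0.034) and Fstl3 higher (0.71, edgeR adjusted p 0.0227), both with overlapping libraries. The call of Fst was lost without sham library 1 or 4 or Glenn library 1, 2 or 3 (edgeR adjusted p up to 0.178) and that of Fstl3 without sham library 1 or Glenn library 2 (up to 0.0985). Bmp4 (-0.14) and Chrd (-0.16) did not pass the threshold.

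The promoters of Nog and Smad9, which both fell, hold the letters GGCGCC, the GC-rich box that SMAD1 and SMAD5 are known to bind, and are shown for that reason. The sequences are from RefSeq (build GRCr8), run from 250 bases before to 50 after the annotated start and are written 5′ to 3′ on the gene's own strand, with the box in capitals. Smad9 lies at chr2:141106418-141106717 (plus strand), with the box at -15 to -10 from the start, and Nog at chr10:74627452-74627751 (minus strand), with the box at -51 to -46.
Smad9: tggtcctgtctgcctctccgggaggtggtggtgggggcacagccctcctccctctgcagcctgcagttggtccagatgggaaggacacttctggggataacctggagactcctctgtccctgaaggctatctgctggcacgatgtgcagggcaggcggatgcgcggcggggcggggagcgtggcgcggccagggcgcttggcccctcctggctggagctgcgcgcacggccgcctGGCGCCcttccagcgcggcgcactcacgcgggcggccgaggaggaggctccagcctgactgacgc
Nog: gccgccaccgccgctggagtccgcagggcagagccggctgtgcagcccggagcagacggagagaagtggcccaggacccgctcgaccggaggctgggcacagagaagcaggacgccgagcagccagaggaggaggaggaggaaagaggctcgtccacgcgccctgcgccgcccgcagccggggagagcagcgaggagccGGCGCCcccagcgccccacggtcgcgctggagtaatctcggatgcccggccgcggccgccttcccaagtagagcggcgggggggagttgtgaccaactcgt
The box reads the same on both strands. Of the 39 genes in the 4 BMP and SMAD lists 31 were matched, and 13 of these had it in a promoter (41.9%). It was present in 3683 of 33365 distinct RefSeq promoter sequences of the same length (11%). The first share counts genes with the box in any of their promoters and the second counts single sequences, so they are not counted alike. The 13 genes include Smad7 and Bambi, which were lower, Smad3, which was higher, and Smad2, Hey2, Id4, Acvr2a, Bmper, Chrd, Fstl1 and Grem1, which did not pass the threshold. A match describes the letters in this window.

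**Figure D2:**
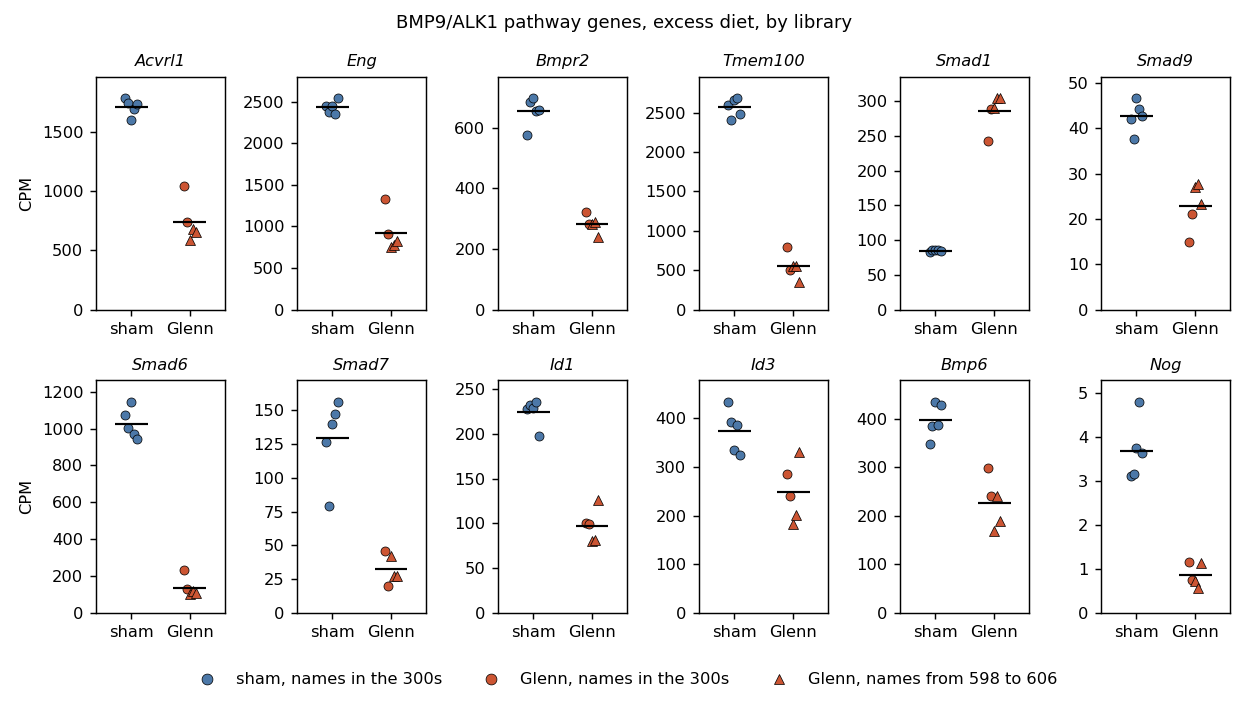
BMP9/ALK1 pathway genes in the 10 excess-diet libraries, in CPM on a linear axis from 0 (points, libraries; circles, names in the 300s; triangles, names from 598 to 606; bars, group means). Smad1 is the one gene of the 12 shown that was higher in all Glenn libraries, and Id3 the one whose groups overlap.

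TGF-beta genes were higher in 8 of 14 cases and lower in 1 (median log2 change 0.46). Ccn2, a matricellular target also driven by YAP, was at 108, 124, 93.9, 106 and 108 CPM in the sham libraries and at 275, 254, 199.7, 234 and 293 CPM in the Glenn libraries (log2 change 1.3, SE 0.17, edgeR adjusted p 1.94e-06). Tgfbr2, the type II receptor, rose from 443 ± 27.8 to 702 ± 72.5 CPM (log2 change 0.61, SE 0.10, edgeR adjusted p 2.05e-05), and Tgfb3, a ligand, from 9.76 ± 1.52 to 23.2 ± 4.45 CPM (log2 change 0.98, SE 0.19, edgeR adjusted p 0.000287). These 3 genes did not overlap between groups. Ltbp3, which anchors latent TGF-beta in the matrix, had a log2 change of 0.55. Skil, a repressor of SMAD transcription, was the gene that fell (log2 change -0.62, SE 0.11, edgeR adjusted p 6.83e-05). Tgfb2 (-0.01) and Tgfbr1 (0.07) did not pass the threshold. Without Glenn library 2, 5 genes of this list were higher.

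The ligands and receptors of VEGF signalling split, with 3 of 10 genes higher and 3 lower. Vegfa was at 1655, 1501, 1587, 1540.4 and 1463 CPM in the sham libraries and at 289, 358, 425, 409 and 323 CPM in the Glenn libraries (log2 change -2.19, SE 0.12, edgeR adjusted p 7.54e-13), and the highest Glenn value was far below the lowest sham value. Kdr, its main signalling receptor, fell from 1214, 1156, 1111, 1235 and 1376 CPM to 696, 699, 753, 749.9 and 525 CPM (log2 change -0.93, SE 0.15, edgeR adjusted p 2.93e-05), and the coreceptor Nrp1 from 942 ± 76.1 to 624 ± 56.1 CPM (log2 change -0.60, SE 0.11, edgeR adjusted p 0.000214). In the opposite direction, Pgf, placental growth factor, rose from 2.29, 1.56, 2.15, 1.78 and 2.31 CPM to 5.05, 7.17, 7.81, 9.29 and 15.7 CPM (log2 change 1.84, SE 0.23, edgeR adjusted p 5.66e-07). Flt4, the receptor of VEGF-C in lymphatic and sprouting endothelium, rose from 65.3 ± 6.77 to 155 ± 20.3 CPM (log2 change 1.23, SE 0.14, edgeR adjusted p 9.77e-08), and Nrp2 had a log2 change of 0.58. None of these 6 genes overlapped between the groups. Flt1 (0.03), Vegfb (-0.21) and Vegfc (0.19) did not pass the threshold. Markers of lymphatic endothelium, which also expresses Flt4 and Nrp2, summed to 1487 to 1875 CPM in sham and 2714 to 3995 CPM in Glenn libraries, and their part in these values was not tested. The summed markers of type 2 alveolar cells, which can also make Vegfa, were at 55469.7 to 77409 CPM in sham and 38296 to 57322 CPM in Glenn libraries, and their part in the fall of Vegfa was not tested.

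Genes that mark tip cells, the leading cells of a growing sprout, rose in 13 of 18 cases, with 1 lower and a median log2 change of 1.08. Angpt2, a Tie2 ligand that loosens vessel walls, was at 15.8, 13.2, 14.7, 15.8 and 16.5 CPM in the sham libraries and at 59.7, 85.3, 75, 76.9 and 121 CPM in the Glenn libraries (log2 change 2.39, SE 0.17, edgeR adjusted p 2.71e-11). Esm1, the proteoglycan endocan, ranged from 44.6 to 90.5 CPM in sham and 192 to 364 CPM in Glenn libraries (log2 change 2.31, SE 0.32, edgeR adjusted p 4.91e-06). Apln, the ligand of the apelin receptor, stood at 231, 149, 190.3, 183 and 187 CPM in the sham libraries and at 494, 409.5, 479, 344 and 470.2 CPM in the Glenn libraries (log2 change 1.17, SE 0.20, edgeR adjusted p 9.34e-05). All 5 Glenn libraries were above all sham libraries in each of these genes. Adm, the vasodilator adrenomedullin, rose from 15.2, 9.06, 9.51, 9.88 and 10.7 CPM to 56.3, 82.2, 67.7, 76.0 and 78.2 CPM (log2 change 2.68, SE 0.21, edgeR adjusted p 3.54e-10). Cxcr4, the CXCL12 receptor, rose from 95.3 ± 21.6 to 335 ± 26.1 CPM (log2 change 1.67, SE 0.19, edgeR adjusted p 1.41e-07). Nid2, a basement membrane glycoprotein, changed by 1.33, and Cd34, a sialomucin, by 1.58 from low levels. The member that fell was Plvap, the diaphragm protein of fenestrae and caveolae, from 5949, 5548, 5245, 5163 and 6192 CPM to 3124, 2128, 1317, 1549 and 1597 CPM (log2 change -1.32, SE 0.17, edgeR adjusted p 1.24e-06). Dll4 (0.31), Mcam (0.23), Unc5b (0.25) and Pdgfb (0.14) did not pass the threshold.

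Of 9 angiopoietin, Tie and apelin genes, 4 were higher and 0 lower. Besides Angpt2 and Apln these were Angptl4, a lipase inhibitor, at 1.76, 1.12, 0.954, 0.542 and 0.526 CPM in the sham libraries and at 2.01, 5.35, 5.05, 3.45 and 6.79 CPM in the Glenn libraries (log2 change 1.97, SE 0.42, edgeR adjusted p 0.000829), and Tie1. The Glenn range of Angptl4 lay above the sham range. Tie1, an orphan endothelial receptor, overlapped between groups (0.37, edgeR adjusted p 0.0201) and lost its call without sham library 4 or Glenn library 1 or 2 (edgeR adjusted p up to 0.0927). Tek, the angiopoietin receptor Tie2 (-0.14), Aplnr (-0.26) and Ptprb (0.06) did not pass the threshold.

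Vash1, the angiogenesis inhibitor and tubulin carboxypeptidase vasohibin 1, rose several-fold. It stood at 20.6, 21.2, 18.6, 17.0 and 17.8 CPM in the sham libraries and at 168, 165, 183, 188 and 223 CPM in the Glenn libraries (log2 change 3.14, SE 0.18, edgeR adjusted p 9.83e-13). Its partner Svbp (0.24), the retyrosinating ligase Ttl (-0.18) and Vash2 (1.36, edgeR adjusted p 0.0599) did not pass the threshold. Ttll4 changed by 0.40 (edgeR adjusted p 0.0474), a call lost without sham library 1, 2 or 3 or Glenn library 1, 2, 3 or 4 (up to 0.132) and in 5 other alternatives.

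**Figure D3:**
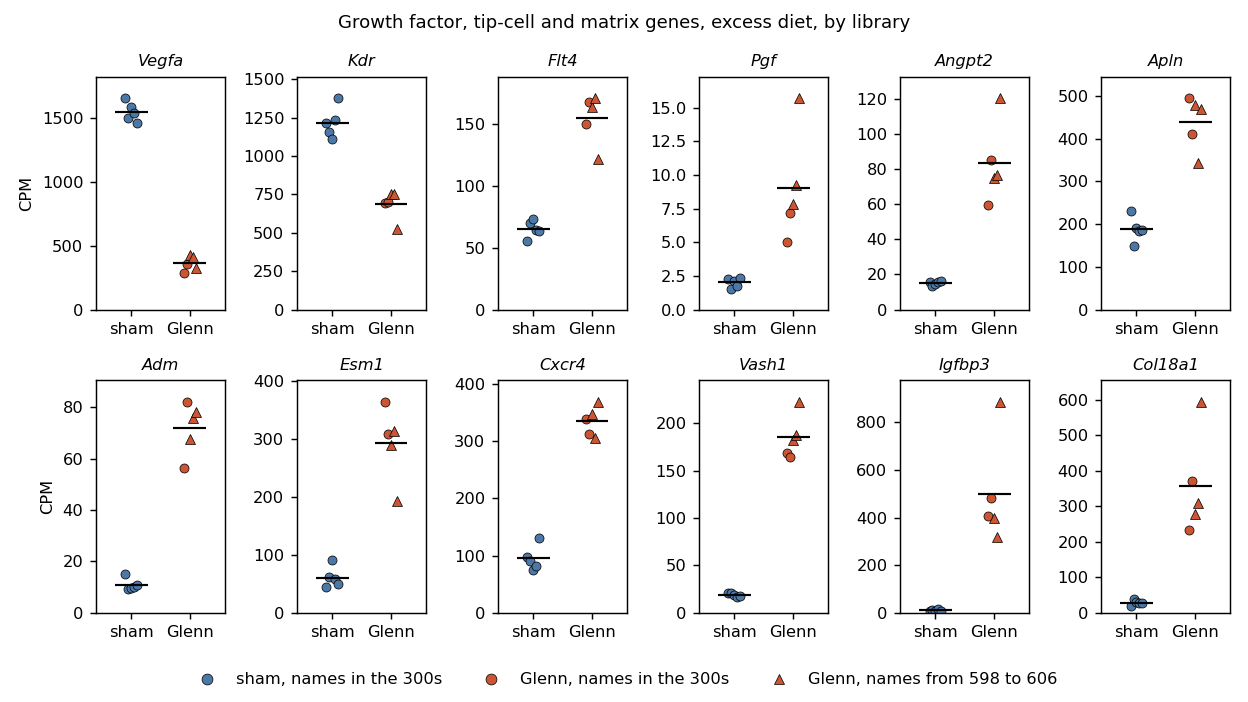
Growth factor, receptor, tip-cell and matrix genes in the 10 excess-diet libraries, in CPM on a linear axis from 0 (points, libraries; circles, names in the 300s; triangles, names from 598 to 606; bars, group means). Vegfa and Kdr lie lower in every Glenn library and the other 10 genes higher, with a wide spread of Igfbp3 and Col18a1 among Glenn libraries.

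Shear-responsive genes and clotting regulators were divided. Klf2, a transcription factor that laminar flow induces, was at 1855, 1621, 1366, 1756 and 2021 CPM in the sham libraries and at 853, 728, 520.1, 729.5 and 784 CPM in the Glenn libraries (log2 change -1.26, SE 0.15, edgeR adjusted p 2.26e-07), and Klf4, its relative, fell from 243 ± 22.8 to 149.6 ± 24.1 CPM (log2 change -0.74, SE 0.15, edgeR adjusted p 0.000538). Thbd, the anticoagulant receptor thrombomodulin, stood at 4133, 3979, 4380.4, 3716 and 3775 CPM in the sham libraries and at 2166, 1720.2, 1329, 1613 and 1258 CPM in the Glenn libraries (log2 change -1.19, SE 0.15, edgeR adjusted p 4.18e-07). All 3 fell without overlap. Nos3, endothelial nitric oxide synthase, went the other way, from 82.5, 78.1, 80.6, 82.4 and 82.0 CPM to 199, 154, 105, 148 and 215 CPM (log2 change 1.1, SE 0.17, edgeR adjusted p 1.12e-05), and so did the calcium channel Trpv4 (log2 change 1.38, SE 0.20, edgeR adjusted p 7.28e-06). In all, 2 of 14 flow-related genes were higher and 4 lower, while the channel Piezo1 (-0.10) and the polycystin genes Pkd1 (-0.08) and Pkd2 (0.16) did not pass the threshold. Tfpi2, a serine protease inhibitor, rose from 2.31, 1.85, 2.75, 2.24 and 2.31 CPM to 53.2, 23.5, 16.9, 28 and 25.7 CPM (log2 change 3.8, SE 0.30, edgeR adjusted p 4.64e-10). Plau, the urokinase activator, rose from 37.1 ± 2.99 to 96.6 ± 20.4 CPM (log2 change 1.3, SE 0.21, edgeR adjusted p 2.65e-05), whereas Plat, the tissue plasminogen activator, fell from 706 ± 92.5 to 393 ± 72.0 CPM (log2 change -0.76, SE 0.20, edgeR adjusted p 0.00584). Of 13 clotting and fibrinolysis genes 6 were higher and 4 lower, and Vwf (-0.12) did not pass the threshold.

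Vasomotor genes were higher in 7 and lower in 6 of 21 cases. Edn1, the vasoconstrictor endothelin 1, was at 538, 470.2, 459, 442 and 608 CPM in the sham libraries and at 330.4, 289, 196, 216 and 297 CPM in the Glenn libraries (log2 change -0.65, SE 0.14, edgeR adjusted p 0.00112). Its receptor Ednrb, a marker of alveolar aerocytes, fell from 540.4 ± 53.8 to 251 ± 57.1 CPM (log2 change -1.39, SE 0.18, edgeR adjusted p 7.52e-07). Ace, angiotensin-converting enzyme, fell from 4079.8 ± 464 to 2356 ± 356 CPM (log2 change -0.72, SE 0.12, edgeR adjusted p 5.71e-05). Calcrl and Ramp2, which together form the adrenomedullin receptor, fell from 1217 ± 128 to 510.5 ± 54.5 CPM (log2 change -1.26, SE 0.14, edgeR adjusted p 5.45e-08) and from 1255 ± 111 to 757 ± 104 CPM (log2 change -0.68, SE 0.10, edgeR adjusted p 8.1e-06). Their ligand gene Adm was the vasomotor gene with the largest rise. Bdkrb2, the bradykinin B2 receptor, rose from 1.88 ± 0.770 to 7.27 ± 2.38 CPM (log2 change 1.95, SE 0.31, edgeR adjusted p 2e-05), and Ptgs2, inducible cyclooxygenase, from 14.5 ± 2.62 to 28.6 ± 6.92 CPM (log2 change 0.98, SE 0.24, edgeR adjusted p 0.00346). Agtr1a, Ednra and Ptgir were higher with overlapping libraries (log2 changes 0.81, 0.94 and 1.2, edgeR adjusted p 0.0211, 0.022 and 0.0274), and these calls were lost among libraries named in the 300s. They were also lost without sham library 1 or 3 or Glenn library 2 (Agtr1a), sham library 3 or Glenn library 2 (Ednra) and sham library 1, 2 or 4 or Glenn library 2 or 4 (Ptgir), at edgeR adjusted p up to 0.0783, 0.145 and 0.0631. Without Glenn library 2, and among libraries named in the 300s, 4 genes of the list were higher.

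Carriers and ligands of insulin-like and platelet-derived growth factors rose in 8 of 15 cases, with 1 lower and a median log2 change of 1.16. Besides Igfbp3, Igfbp5 was at 196, 255, 319, 287 and 249 CPM in the sham libraries and at 1302, 972, 1241, 1219 and 896 CPM in the Glenn libraries (log2 change 2.17, SE 0.24, edgeR adjusted p 8.87e-08) and Igfbp4 at 70.5, 65.9, 44.8, 44.0 and 49.9 CPM in the sham libraries and at 302, 351, 337, 342 and 709.7 CPM in the Glenn libraries (log2 change 2.69, SE 0.26, edgeR adjusted p 1.32e-08). Glenn library 5 stood apart from the other Glenn libraries for Igfbp4, and both genes were above the sham range in all Glenn libraries. Igf1 rose from 4.95 ± 0.784 to 14.1 ± 1.41 CPM (log2 change 1.61, SE 0.22, edgeR adjusted p 1.81e-06). Pdgfd, which was lower, fell from 62.5 ± 6.93 to 36.3 ± 4.92 CPM (log2 change -0.93, SE 0.16, edgeR adjusted p 5.88e-05). Pdgfrb, the receptor of pericytes, rose from 21.4 ± 5.65 to 54.4 ± 26.2 CPM (log2 change 1.21, SE 0.30, edgeR adjusted p 0.00414), overlapped between groups and missed the threshold among libraries named in the 300s (0.73, edgeR adjusted p 0.0933).

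Of 20 collagen genes 10 were higher and 0 lower (median log2 change 0.69), and of 16 elastic fibre genes 9 were higher and 0 lower (0.91). Col18a1, a basement membrane collagen from which endostatin is cut, was at 18.3, 37.5, 30.7, 29.0 and 26.3 CPM in the sham libraries and at 232, 372, 277, 310.3 and 595 CPM in the Glenn libraries (log2 change 3.65, SE 0.30, edgeR adjusted p 1.2e-09). Col4a1, the main collagen of endothelial basement membranes, stood at 1098, 1229.7, 1025, 1111 and 1295 CPM in the sham libraries and at 2398, 2174, 1979.9, 2029 and 2067 CPM in the Glenn libraries (log2 change 0.99, SE 0.16, edgeR adjusted p 1.97e-05). Both rose in every Glenn library beyond the sham range. Col8a1, a vessel wall collagen, rose from 12.1 ± 1.48 to 63.1 ± 26.6 CPM (log2 change 2.53, SE 0.32, edgeR adjusted p 1.01e-06), and Col1a1, a fibrillar collagen, from 129 ± 39.5 to 295 ± 73.1 CPM (log2 change 1.18, SE 0.23, edgeR adjusted p 0.0004). Eln, elastin, was at 907, 793, 687, 756 and 689 CPM in the sham libraries and at 1562, 1227, 1941, 1696 and 2133 CPM in the Glenn libraries (log2 change 1.04, SE 0.19, edgeR adjusted p 0.000214), and its assembly partner Fbln5 rose from 90.3 ± 19.6 to 322 ± 63.6 CPM (log2 change 1.95, SE 0.22, edgeR adjusted p 1.22e-07). Emilin2, an elastic fibre glycoprotein, went from 0.310, 0.412, 0.817, 1.06 and 0.819 CPM to 19.1, 17.3, 10.6, 17.7 and 10.7 CPM (log2 change 4.56, SE 0.39, edgeR adjusted p 1.63e-09). Lox, which crosslinks both fibres, changed by 1.05. Of 22 laminin and integrin genes 9 were higher and 4 lower. Lamc1, the laminin chain shared by most laminins, rose from 141 ± 15.6 to 331 ± 33.2 CPM (log2 change 1.23, SE 0.13, edgeR adjusted p 1.88e-08), and Itga3, a laminin receptor, fell from 251 ± 9.48 to 160.5 ± 9.44 CPM (log2 change -0.69, SE 0.08, edgeR adjusted p 7.07e-08). Matrix proteases and their inhibitors were higher in 8 of 16 cases and lower in 2, among them Mmp14 (log2 change 1.25, SE 0.11, edgeR adjusted p 1.31e-09), Mmp2 (log2 change 1.72, SE 0.22, edgeR adjusted p 1.14e-06), Adamts4 (log2 change 2.83, SE 0.27, edgeR adjusted p 6.68e-09) and the inhibitor Timp3 (log2 change 1.35, SE 0.16, edgeR adjusted p 4.39e-07).

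Pericyte and smooth muscle markers moved with these genes, while the sums of fibroblast markers overlapped between the groups. The summed level of 12 pericyte and smooth muscle markers was 191 to 318 CPM in sham and 566 to 1228 CPM in Glenn libraries, and that of 10 fibroblast markers 1414 to 2377 CPM in sham and 1955 to 3429 CPM in Glenn libraries. Of the pericyte and smooth muscle markers 11 of 12 were higher, and of the fibroblast markers 2 of 10. Among all genes tested 11.6% were higher. No marker of either list was at 0 in all 10 libraries. In the fit of the 10 libraries with the name series, 7 of the pericyte and smooth muscle markers were higher, and without Glenn library 1, 4 of the fibroblast markers were higher. The part of these cell types in the matrix and growth factor results was not tested.

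Notch genes were higher in 3 of 13 cases and lower in 0, near the 21.9% of all genes tested that differed in either direction. Heyl, a Notch target, rose from 7.21 ± 2.95 to 22.7 ± 9.68 CPM (log2 change 1.61, SE 0.32, edgeR adjusted p 0.000412), and Notch3, the receptor of mural cells, from 19.5 ± 6.75 to 65.0 ± 27.7 CPM (log2 change 1.8, SE 0.39, edgeR adjusted p 0.00124). Both are expressed in pericytes, lay above the sham range in all Glenn libraries and lost their call in the fit of the 10 libraries with the name series. Jag1, a ligand, changed by 0.52 (edgeR adjusted p 0.0396), a call lost without sham library 1, 2 or 5 or Glenn library 1, 4 or 5 (up to 0.0876) and among libraries named in the 300s. The endothelial receptors Notch1 (-0.24) and Notch4 (0.31) and the target Hes1 (0.26) did not pass the threshold.

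Transcription factors of endothelial identity were lower in 8 of 18 cases and higher in 6. Foxf1, which directs lung capillary development and whose loss misaligns pulmonary veins, was at 1408, 1191, 1324, 1172 and 1278 CPM in the sham libraries and at 881, 571, 478, 597 and 468 CPM in the Glenn libraries (log2 change -1.0, SE 0.17, edgeR adjusted p 6.67e-05). Tbx3 fell from 287, 287, 309, 271 and 294 CPM to 105, 108, 94.0, 122 and 72.4 CPM (log2 change -1.5, SE 0.14, edgeR adjusted p 5.32e-09) and its relative Tbx2 from 163 ± 38.9 to 56.5 ± 12.3 CPM (log2 change -1.8, SE 0.21, edgeR adjusted p 2.02e-07). Gata2 had a log2 change of -0.83. These 4 factors did not overlap between groups. Mecom, an arterial and stem cell factor, rose from 65.7 ± 10.1 to 119 ± 13.9 CPM (log2 change 0.88, SE 0.16, edgeR adjusted p 0.000116), Nr2f2, the venous factor COUP-TFII, from 35.8 ± 5.22 to 56.7 ± 4.31 CPM (log2 change 0.64, SE 0.12, edgeR adjusted p 0.000268), and Erg, a general endothelial factor whose libraries overlapped, from 108 ± 17.7 to 144 ± 17.4 CPM (log2 change 0.47, SE 0.11, edgeR adjusted p 0.0016). Among libraries named in the 300s the counts were 5 higher and 4 lower, and without Glenn library 2, 5 were lower. Fli1 (0.34) and Foxo1 (0.22) did not pass the threshold.

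Guidance molecules were higher in 8 and lower in 7 of 25 cases, and Wnt genes higher in 10 and lower in 5 of 27. Sema3c, a semaphorin, fell from 751, 911, 829, 698 and 755 CPM to 246, 276, 509, 318 and 200.2 CPM (log2 change -1.57, SE 0.18, edgeR adjusted p 1.55e-07), and Sema3a rose from 3.32, 6.09, 8.06, 4.88 and 5.03 CPM to 16.2, 22.4, 32.7, 28.2 and 22.5 CPM (log2 change 2.03, SE 0.27, edgeR adjusted p 2.4e-06). Neither overlapped. Robo4, an endothelial guidance receptor, rose from 74.4 ± 10.1 to 137 ± 11.7 CPM (log2 change 0.92, SE 0.12, edgeR adjusted p 8.8e-07), and Efnb1, an ephrin, fell from 469.6 ± 26.1 to 215 ± 67.3 CPM (log2 change -1.01, SE 0.18, edgeR adjusted p 0.000132). Wnt5b, a ligand, stood at 58.3, 47.7, 43.0, 34.7 and 44.5 CPM in the sham libraries and at 5.98, 5.76, 5.91, 6.86 and 7.65 CPM in the Glenn libraries (log2 change -2.79, SE 0.19, edgeR adjusted p 9.9e-12). The feedback targets Axin2 (log2 change -1.0, SE 0.15, edgeR adjusted p 1.56e-05) and Nkd1 (log2 change -0.81, SE 0.11, edgeR adjusted p 4.13e-06) also fell, as did Tspan12, a coreceptor of Fzd4 (log2 change -0.56, SE 0.10, edgeR adjusted p 8.02e-05). Dkk2, a secreted Wnt regulator, rose from 3.28, 5.12, 6.21, 5.03 and 4.53 CPM to 21.4, 33.7, 20.5, 29.7 and 44.6 CPM (log2 change 2.93, SE 0.29, edgeR adjusted p 2.1e-08), and Fzd6, a receptor, from 32.5 ± 3.28 to 66.7 ± 11.8 CPM (log2 change 1.05, SE 0.13, edgeR adjusted p 6.13e-07).

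Of 12 junction genes 3 were higher and 3 lower, and of 9 leukocyte adhesion genes 3 were higher and 2 lower. Gja1, connexin 43, was at 179, 179, 207, 187 and 246 CPM in the sham libraries and at 544, 647, 535, 477 and 389.9 CPM in the Glenn libraries (log2 change 1.38, SE 0.16, edgeR adjusted p 1.2e-07), above the sham range throughout. Esam, a junctional adhesion molecule, fell from 893 ± 96.2 to 576 ± 82.0 CPM (log2 change -0.56, SE 0.10, edgeR adjusted p 5.99e-05), and Icam2 from 575 ± 53.3 to 312 ± 52.4 CPM (log2 change -0.80, SE 0.10, edgeR adjusted p 6.94e-07). Cdh5, VE-cadherin (-0.16), and Pecam1 itself (0.02) did not pass the threshold. Selp, P-selectin, rose from 36.1 ± 7.29 to 79.3 ± 23.7 CPM (log2 change 1.54, SE 0.21, edgeR adjusted p 3.56e-06), and S1pr3, a sphingosine-1-phosphate receptor, from 11.6 ± 3.50 to 48.0 ± 22.9 CPM (log2 change 2.02, SE 0.33, edgeR adjusted p 4.58e-05). The change of S1pr3 was 1.24 among libraries named in the 300s.

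Of 11 hyaluronan genes 2 were higher and 4 lower. The hyaluronidase genes Hyal1 (log2 change -0.81, SE 0.14, edgeR adjusted p 6.99e-05) and Hyal2 (log2 change -1.16, SE 0.13, edgeR adjusted p 1.5e-07) fell beside Hyal3, and the hyaluronan receptor Cd44 was lower with overlapping libraries (log2 change -0.51, SE 0.13, edgeR adjusted p 0.00364), a call lost in the fit of the 10 libraries with the name series. Cemip, which also promotes hyaluronan breakdown, was higher from a low level with overlapping libraries, at 0 to 0.824 CPM in sham and 0.594 to 2.52 CPM in Glenn libraries (log2 change 2.74, SE 0.82, edgeR adjusted p 0.0159), and did not pass the threshold among libraries named in the 300s (edgeR adjusted p 0.109) or in fits of the 10 libraries alone. Has3, a hyaluronan synthase, rose from 0.248, 0.353, 0.627, 0.335 and 0.263 CPM to 4.36, 2.36, 2.17, 2.34 and 3.71 CPM (log2 change 2.88, SE 0.49, edgeR adjusted p 5.18e-05). YAP/TEAD genes were higher in 5 of 11 cases and lower in 2. Wwtr1, the coactivator TAZ, stood at 85.8, 104, 111, 89.7 and 88.2 CPM in the sham libraries and at 207, 215, 216, 204 and 206 CPM in the Glenn libraries (log2 change 1.13, SE 0.09, edgeR adjusted p 4.65e-10), with the Glenn values close together and above all sham values. Amotl2, a target and inhibitor of YAP, fell (log2 change -0.78, SE 0.13, edgeR adjusted p 5.88e-05). Among libraries named in the 300s, 2 genes of the YAP/TEAD list were higher and 2 lower.

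Genes of glucose use and the hypoxia response were higher in 6 of 17 cases and lower in 2. Pfkfb3, a glycolytic activator needed for sprouting, rose from 24.0, 26.5, 25.5, 22.9 and 21.1 CPM to 97.6, 116, 69.3, 76.1 and 87.3 CPM (log2 change 2.01, SE 0.19, edgeR adjusted p 7.29e-09). Ndrg1, a hypoxia-induced gene, rose from 30.9 ± 6.77 to 118 ± 15.3 CPM (log2 change 1.93, SE 0.18, edgeR adjusted p 4.5e-09). The hypoxia factors themselves split, since Hif1a rose from 105 ± 7.72 to 170.2 ± 17.3 CPM (log2 change 0.67, SE 0.09, edgeR adjusted p 1.31e-06) and Epas1, which encodes HIF-2α, fell from 5554 ± 593 to 3136 ± 495 CPM (log2 change -0.73, SE 0.11, edgeR adjusted p 1.25e-05). None of these 4 overlapped between the groups. Lpl, lipoprotein lipase, fell from 676 ± 109 to 237 ± 85.9 CPM (log2 change -1.34, SE 0.21, edgeR adjusted p 2.94e-05), with 2 of 9 capillary fatty acid uptake genes higher and 2 lower. Cholesterol and fatty acid synthesis genes were higher in 1 and lower in 1 of 18 cases, where 21.9% of all genes tested differed in either direction.

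Cell cycle genes were higher in part. Of 21 genes of DNA replication and the G1/S transition 8 were higher and 1 lower (median log2 change 0.37), and of 22 mitotic genes 6 were higher and 0 lower (0.97). Ccnd2, cyclin D2, rose from 65.2, 59.3, 49.8, 50.4 and 41.6 CPM to 132, 91.1, 102, 104 and 129 CPM (log2 change 1.14, SE 0.16, edgeR adjusted p 5.65e-06), whereas Ccnd1, cyclin D1, fell from 208 ± 35.2 to 129.9 ± 16.2 CPM (log2 change -0.65, SE 0.12, edgeR adjusted p 0.000153). Both were without overlap. Mcm6, part of the replicative helicase, rose from 23.1 ± 4.03 to 39.0 ± 2.64 CPM (log2 change 0.75, SE 0.13, edgeR adjusted p 7.16e-05). Cenpf, a kinetochore protein, stood at 1.45, 1.12, 0.954, 1.93 and 1.02 CPM in the sham libraries and at 4.01, 3.47, 5.64, 4.28 and 5.86 CPM in the Glenn libraries (log2 change 1.82, SE 0.42, edgeR adjusted p 0.00169). Mki67, the proliferation marker Ki-67, went from 7.10 ± 1.83 to 12.3 ± 1.42 CPM (log2 change 1.0, SE 0.34, edgeR adjusted p 0.035), with every Glenn library above every sham library, and lost its call in 10 of 22 alternatives, among them those without sham library 3, 4 or 5 or Glenn library 1, 2 or 3 (edgeR adjusted p up to 0.0842). Among libraries named in the 300s, 4 replication genes were higher and 1 lower, and 1 mitotic gene was higher. Without Glenn library 1, 3 mitotic genes were higher, and with RT1-CE16 level replacing the name series 11 were. Of 15 immediate early genes 3 were higher and 1 lower, where 21.9% of all genes tested differed in either direction. Fos was among the higher ones (log2 change 0.51, SE 0.10, edgeR adjusted p 0.000445).

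Markers of lung cell types were used to describe the sorted cells. All 8 endothelial markers were detected in every library, and their sum was 8456 to 9406 CPM in sham and 6656 to 8689 CPM in Glenn libraries, with 2 higher and 3 lower. Within the endothelium, the aerocyte list had 6 of 10 lower and 1 higher (median log2 change -0.81). Car4, the carbonic anhydrase that marks aerocytes, was at 591, 455, 409, 382 and 424 CPM in the sham libraries and at 115, 147, 148, 99.6 and 107 CPM in the Glenn libraries (log2 change -1.98, SE 0.18, edgeR adjusted p 3.64e-09), and Prx, periaxin, fell from 472 ± 43.9 to 143 ± 43.5 CPM (log2 change -1.72, SE 0.18, edgeR adjusted p 3.11e-08). General capillary markers were lower in 4 of 9 cases and higher in 0, with Adgre5 falling from 1739.6 ± 106 to 661 ± 83.9 CPM (log2 change -1.39, SE 0.15, edgeR adjusted p 5.36e-08). Their sums were 3258 to 3831 CPM in sham and 1698 to 2154 CPM in Glenn libraries for aerocytes and 10698 to 12380.0 CPM in sham and 4882 to 7993 CPM in Glenn libraries for general capillaries. Neither sum overlapped between groups, and Plvap held a large part of the general capillary sum.

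Lymphatic and mural markers were higher. Ccl21, the lymphatic chemokine, stood at 711, 649, 793, 611 and 469 CPM in the sham libraries and at 1841, 2335, 2273, 1676 and 1658 CPM in the Glenn libraries (log2 change 1.79, SE 0.23, edgeR adjusted p 9.97e-07), and Prox1, the factor that defines lymphatic endothelium, at 6.01, 6.18, 5.88, 5.19 and 3.57 CPM in the sham libraries and at 9.20, 13.6, 11.2, 13.0 and 7.35 CPM in the Glenn libraries (log2 change 1.1, SE 0.28, edgeR adjusted p 0.00416). Of 8 lymphatic markers 6 were higher and 0 lower (median log2 change 0.98), with sums of 1487 to 1875 CPM in sham and 2714 to 3995 CPM in Glenn libraries. Acta2, smooth muscle actin, was at 14.7, 24.5, 24.9, 26.1 and 30.7 CPM in the sham libraries and at 66.7, 112, 85.6, 145 and 211 CPM in the Glenn libraries (log2 change 2.41, SE 0.38, edgeR adjusted p 3.08e-05), and Rgs5, a pericyte gene, rose from 54.5 ± 4.36 to 94.5 ± 37.1 CPM (log2 change 1.04, SE 0.19, edgeR adjusted p 0.000202). The 12 pericyte and smooth muscle markers had a median log2 change of 1.68. Arterial markers were higher in 6 of 10 cases and lower in 2. Bmx, an arterial kinase, rose from 8.85 ± 1.86 to 27.0 ± 9.98 CPM (log2 change 1.79, SE 0.26, edgeR adjusted p 6.27e-06), and Gja5, connexin 40, with overlapping libraries, from 234 ± 35.5 to 392 ± 86.6 CPM (log2 change 0.97, SE 0.20, edgeR adjusted p 0.000591), while Sema3g fell (log2 change -1.17, SE 0.16, edgeR adjusted p 3.18e-06). Venous markers were higher in 4 and lower in 2 of 10.

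RNA of cells outside the vessel wall was also present. Type 2 alveolar markers were lower in 3 of 10 cases (median log2 change -0.55), with overlapping sums. These 3, the surfactant gene Sftpb (-0.62, edgeR adjusted p 0.0168), the protease gene Napsa (-0.58, edgeR adjusted p 0.018) and the surfactant gene Sftpd (-0.61, edgeR adjusted p 0.0187), all lost their call among libraries named in the 300s and without Glenn library 1, and Sftpb also without Glenn library 2. Without Glenn library 1, 0 of the type 2 markers were lower, and without Glenn library 3, 8 were. Type 1 alveolar markers were higher in 1 and lower in 3 of 7, while their median log2 change was 0.55. Without Glenn library 1, 0 of them were lower. Of 6 platelet markers 3 were lower and 0 higher (median log2 change -1.58), led by Gp9 (log2 change -1.96, SE 0.41, edgeR adjusted p 0.000725), with sums of 36.2 to 78.3 CPM in sham and 28.1 to 37.7 CPM in Glenn libraries that overlapped. Without sham library 4, 5 platelet markers were lower, and among libraries named in the 300s 1 was. Leukocyte sums were 27.8 to 36.0 CPM in sham and 21.1 to 48.1 CPM in Glenn libraries, and of 7 tested markers Cd68, a macrophage protein, was lower (log2 change -1.05, SE 0.24, edgeR adjusted p 0.0015). Airway, mesothelial and erythroid lists had 0 genes past the threshold by edgeR, with 2 airway genes higher without sham library 2. The part of these cell types in the other results was not tested.

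**Figure D4:**
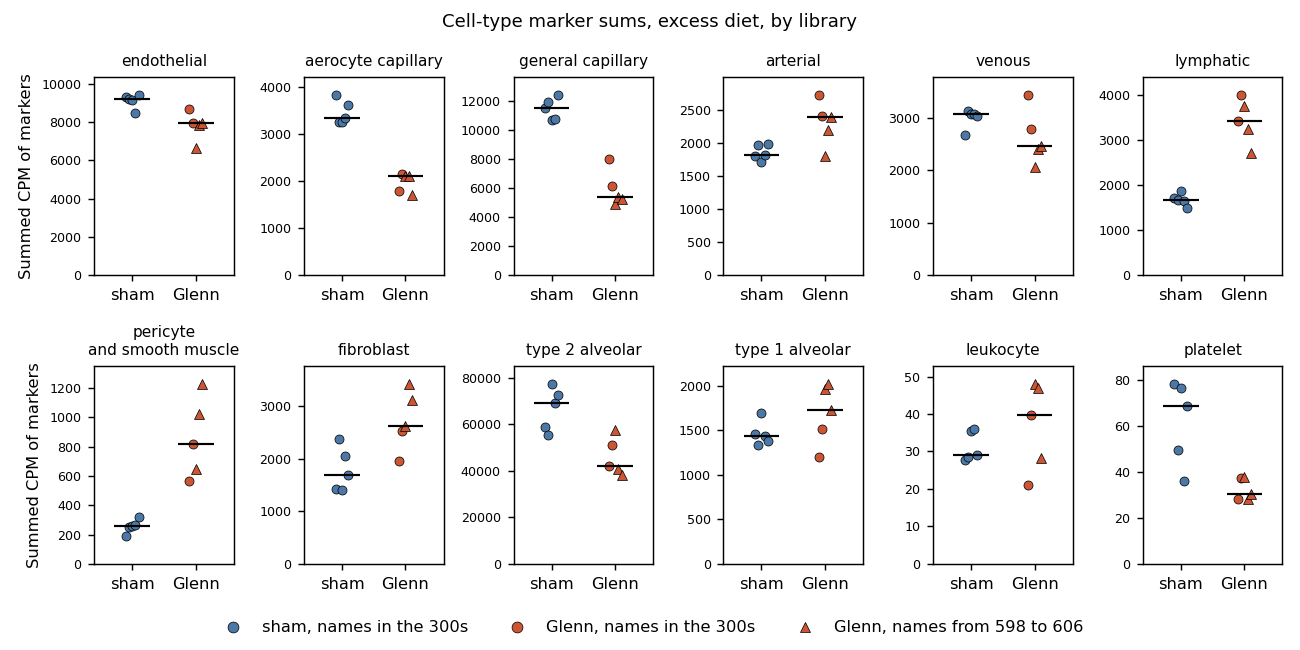
Summed CPM of the measured markers of 12 cell-type lists in the 10 excess-diet libraries, on linear axes from 0 (points, libraries; circles, names in the 300s; triangles, names from 598 to 606; bars, group medians). Capillary sums lie lower, and lymphatic and mural sums higher, in all Glenn libraries, while arterial, venous, fibroblast, alveolar, leukocyte and platelet sums overlap.

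Genes of vitamin A handling were examined because all 10 libraries came from the excess diet. Retinoic acid induces Cyp26b1, which degrades it, Dhrs3, which returns retinal to retinol, and its own receptor gene Rarb. All 3 were lower after Glenn surgery. Other retinoid genes, described below, were not: Cyp26a1 and Stra6 did not pass the threshold, and Crabp2 was higher. Cyp26b1 was at 144, 175, 118, 129.6 and 256 CPM in the sham libraries and at 37.2, 36.0, 46.7, 43.4 and 45.4 CPM in the Glenn libraries (log2 change -1.93, SE 0.40, edgeR adjusted p 0.000935), and Dhrs3 at 169, 170.5, 136, 136 and 183 CPM in the sham libraries and at 89.5, 98.1, 84.5, 87.9 and 88.2 CPM in the Glenn libraries (log2 change -0.74, SE 0.09, edgeR adjusted p 4.8e-07). Neither overlapped. Rarb (ENSRNOG00000024061) was at 71.1, 62.2, 49.1, 50.2 and 60.1 CPM in the sham libraries and at 43.6, 38.2, 38.7, 38.1 and 30.9 CPM in the Glenn libraries (log2 change -0.52, SE 0.14, edgeR adjusted p 0.00827), without overlap, and did not pass the threshold among libraries named in the 300s (-0.51, edgeR adjusted p 0.0882). Of 11 retinoid enzymes 0 were higher and 2 lower, where 11.6% of all genes tested were higher and 10.4% lower. The others include Aldh1a1 (0.35), Aldh1a2 (-0.25) and Rdh10 (-0.19), which make retinal or retinoic acid, and Lrat (-0.29), which stores retinol. None of these 4 passed the threshold.

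Of 12 retinoid receptors and binding proteins 2 were higher and 3 lower. Besides Rarb, Rarg fell from 48.7, 41.2, 42.5, 39.1 and 41.7 CPM to 29.3, 22, 23.5, 24.3 and 25.5 CPM (log2 change -0.79, SE 0.12, edgeR adjusted p 8.91e-06), and Rara from 91.4 ± 15.4 to 67.0 ± 7.55 CPM (log2 change -0.43, SE 0.12, edgeR adjusted p 0.00722). Rara overlapped between groups and missed the threshold among libraries named in the 300s (-0.35, edgeR adjusted p 0.115). Crabp2, a retinoic acid carrier, was higher from a low level, at 0.234 to 1.56 CPM in sham and 1.45 to 3.70 CPM in Glenn libraries (log2 change 2.13, SE 0.48, edgeR adjusted p 0.00159), and lost its call in the fit of the 10 libraries with the name series. Rbp7 (1.72, edgeR adjusted p 0.0351) was higher and lost its call without sham library 2, 3 or 5 or Glenn library 2 or 5 (up to 0.285) and among libraries named in the 300s. Among those libraries 1 gene of the list was lower. Rxra (-0.32), Rxrb (-0.12) and Stra6 (0.16) did not pass the threshold.

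The start region of Rarb carries the retinoic acid response element for which the gene is known, and is shown because Rarb was one of the retinoid genes that fell. It is from RefSeq (build GRCr8), at chr15:11336142-11336441 on the plus strand, 250 bases before to 50 after the start. The repeat in capitals fits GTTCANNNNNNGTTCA and lies at 26 to 41 after the start.
Rarb: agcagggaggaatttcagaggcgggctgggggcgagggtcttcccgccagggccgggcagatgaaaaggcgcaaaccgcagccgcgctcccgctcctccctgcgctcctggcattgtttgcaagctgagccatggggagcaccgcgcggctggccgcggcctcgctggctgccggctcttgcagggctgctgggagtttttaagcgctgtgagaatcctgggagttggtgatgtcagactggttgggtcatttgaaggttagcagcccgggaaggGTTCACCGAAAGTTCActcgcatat
Searched on both strands, this repeat was found for 2 of 22 matched genes of the 24 retinoid genes (9.09%), Rarb and Cyp26a1. It was in 140 of 33365 distinct RefSeq promoter sequences (0.42%), a share that counts sequences and not genes. Cyp26a1 was at 3.02 to 7.39 CPM in sham and 3.27 to 7.35 CPM in Glenn libraries and did not pass the threshold (0.14).

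Most genes that changed on the excess diet had also changed on the others. Glenn against sham called 4023 genes (24.9%) on the control and 4423 (27.4%) on the deficient diet, in groups that share no library with those of the excess diet. Of the 3549 genes of the excess diet, 2424 were called in the same direction on the control diet (68.3%, or 60.3% of the control diet's calls) and 2684 on the deficient diet (75.6%, or 60.7%). In both other diets 2185 (61.6%) were called in that direction, and in neither 619 (17.4%). Smad6 changed by -3.12 on the control and -2.82 on the deficient diet, Vash1 by 3.42 and 3.88, Vegfa by -1.61 and -1.53, and Angpt2 by 2.27 and 2.48, all on the log2 scale and all past the threshold.

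The difference of the Glenn effect between diets passed the threshold in few genes. Against the mean of the other diets, the Glenn effect differed in 2 of 16171 genes (0.0124%) by edgeR, with 984 at an unadjusted p under 0.05 (6.08%). Against the control diet it differed in 3 (0.0186%), with 1204 (7.45%) at an unadjusted p under 0.05, and against the deficient diet in 0 (0%), with 686 (4.24%). DESeq2 called 23, 55 and 1 in these comparisons. The edgeR counts ranged from 0 to 3 and from 1 to 7 when each excess-diet library was left out. The first count went to 0 without sham library 1, 3 or 4 or Glenn library 1 or 2, and the second was 1 without sham library 4 or Glenn library 1, 5 without sham library 2 and 7 without Glenn library 2.

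Maob, the mitochondrial monoamine oxidase B, rose on the excess diet and fell on the others. On the excess diet it was at 263, 330.1, 314, 246 and 320.5 CPM in the sham libraries and at 524, 439, 360.2, 345 and 408 CPM in the Glenn libraries (log2 change 0.56, SE 0.13, edgeR adjusted p 0.00188), without overlap. On the control diet it was at 343, 282, 409.5, 346 and 430.5 CPM in sham and 326, 246, 237, 262 and 285 CPM in Glenn libraries (log2 change -0.42, edgeR adjusted p 0.00966), and on the deficient diet the change was -0.34 (edgeR adjusted p 0.0362). The difference between the excess diet and the mean of the others was 0.94 (SE 0.16, edgeR adjusted p 0.0216). It was 0.81 without Glenn library 1 (edgeR adjusted p 0.313) and 0.86 with RT1-CE16 level replacing the name series (edgeR adjusted p 0.152), and neither passed the threshold. The call was also lost without sham library 1, 3 or 4 or Glenn library 2 (edgeR adjusted p 0.0536 to 0.0804). Against the control diet alone the difference was 0.98 (SE 0.18, edgeR adjusted p 0.0304). That call was lost with no term for the name series (edgeR adjusted p 0.0517), with the RT1-CE16 term (0.0679), and without sham library 1 (0.0956), sham library 4 (0.0946) or Glenn library 1 (0.271).

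Rftn1, a lipid raft protein, rose on the excess diet without overlap, from 33.7, 37.9, 35.5, 33.1 and 36.4 CPM to 63.3, 61.1, 46.8, 53.5 and 61.4 CPM (log2 change 0.82, SE 0.09, edgeR adjusted p 8.86e-08). On the control diet it was at 39.7, 37.2, 40.7, 42.2 and 44.1 CPM in sham and 47.6, 39.5, 33.2, 41.1 and 39.3 CPM in Glenn libraries, with overlapping groups (-0.02). The difference was 0.85 against the control diet (SE 0.12, edgeR adjusted p 0.00322) and 0.66 against the mean of the other diets (edgeR adjusted p 0.0216). With no term for the name series these edgeR adjusted p-values were 0.0517 and 0.331, and without Glenn library 1 the second was 0.28. The second was also above the threshold without sham library 1, 3 or 4 or Glenn library 2 (0.0536 to 0.0804) among libraries named in the 300s (0.277) and with the RT1-CE16 term (0.241).

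Chn2, a Rac GTPase-activating protein, was at 40.9, 39.5, 31.3, 31.4 and 38.3 CPM in the sham libraries and at 59.0, 43.5, 38.6, 41.0 and 36.5 CPM in the Glenn libraries, and the groups overlapped (log2 change 0.41, SE 0.11, edgeR adjusted p 0.00877). It changed by -0.48 on the control diet (edgeR adjusted p 0.000754), a difference of 0.89 between the diets (SE 0.15, edgeR adjusted p 0.0229). Without Glenn library 1 that difference was 0.75 (edgeR adjusted p 0.265) and without sham library 4 it was 0.84 (edgeR adjusted p 0.0721). With no term for the name series it was 0.75 (edgeR adjusted p 0.165). Other genes with small p-values did not pass the threshold. They include C4b, a complement component, with changes of 1.71, 0.49 and 0.60 on the excess, control and deficient diets (1.17, edgeR adjusted p 0.128), and Plod2, a collagen lysyl hydroxylase (1.02, 0.21 and 0.59). Rassf4 fell on the excess and deficient diets (-1.45 and -1.08) and changed by -0.06 on the control diet (difference -1.39, edgeR adjusted p 0.0747).

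Vein genes were also among these leads. Prss23, a serine protease of venous endothelium whose excess-diet call was lost without Glenn library 2, had log2 changes of 0.30, -0.18 and -0.19 in the same order of diets (difference from the mean 0.49, edgeR adjusted p 0.128), and Ackr1, the venular chemokine receptor, of 1.07, -0.31 and -0.04 (1.24, edgeR adjusted p 0.128). Of the 10 venous markers 6 had an unadjusted p under 0.05 for this difference, where 6.08% of all genes did, and 0 passed the adjusted threshold. On the control diet 2 of these markers were higher and 6 lower after Glenn surgery (median log2 change -0.73), on the deficient diet 2 and 5 (-0.41), and on the excess diet 4 and 2 (0.18). Their sum on the excess diet was 2670 to 3123 CPM in sham libraries. In Glenn libraries 1 to 5 it was 3428, 2789, 2061, 2401.5 and 2455 CPM, so the last 3 lay below the sham range. Interferon-stimulated genes likewise had 6 of 18 at an unadjusted p under 0.05 and 0 past the adjusted threshold, with median log2 changes of -0.36, -0.44 and 0.20 on the control, deficient and excess diets. The sum of these interferon-stimulated genes on the excess diet was 2158 to 4058 CPM in sham (median 3065) and 2087 to 3786 CPM in Glenn libraries (median 2701). In Glenn libraries 1 to 5 it was 3786, 3082, 2258, 2087 and 2701 CPM. Of the 18 genes 3 were higher and 1 lower on the excess diet, where 21.9% of all genes tested differed in either direction. The 3 higher genes were Gbp2, Ifit2 and Ifit3 (edgeR adjusted p 0.000945, 0.0102 and 0.0132), each with overlapping libraries. Irf9, a subunit of the interferon-activated factor ISGF3, was lower, also with overlapping libraries (-0.41, edgeR adjusted p 0.0227), and lost its call without sham library 1 or Glenn library 2 (edgeR adjusted p up to 0.0919) and among libraries named in the 300s. Ifit2 and Ifit3 lost their calls in 5 alternatives each, and among libraries named in the 300s 1 gene of the list was higher.

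Of the 39 genes in the 4 BMP and SMAD lists, 0 passed the adjusted threshold for a difference of the Glenn effect between the excess diet and the mean of the others. The Acvrl1 changes were -1.08, -1.67 and -1.43 on the excess, control and deficient diets, with a difference from that mean of 0.47 (SE 0.16, edgeR adjusted p 0.557). For Smad1 the difference was -0.42 (SE 0.15, edgeR adjusted p 0.577), for Bmp2 -0.83 (SE 0.22, edgeR adjusted p 0.29) and for Vegfa -0.62 (SE 0.14, edgeR adjusted p 0.159). The changes of Cyp26b1 were -1.93, -2.13 and -1.57, and those of Dhrs3 -0.74, -0.93 and -0.88 in the same order, and 0 of 23 tested retinoid genes passed the adjusted threshold for a difference between diets.

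**Figure D5:**
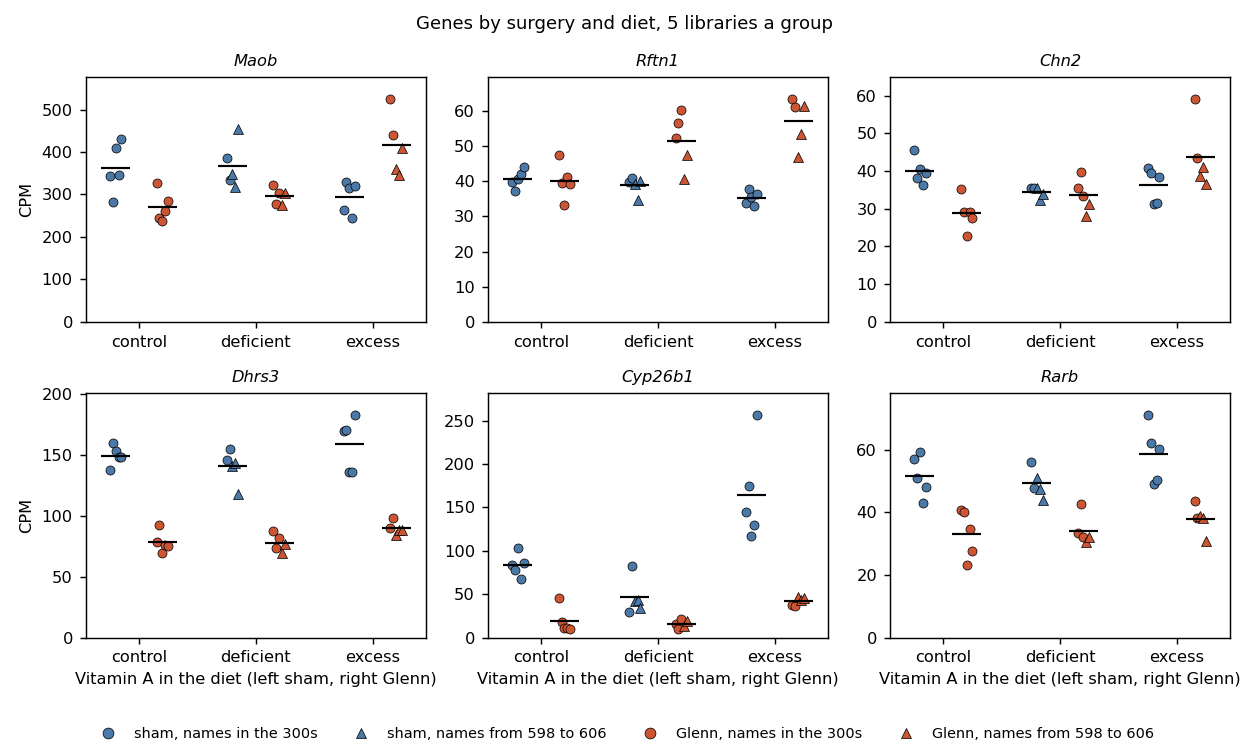
Maob, Rftn1, Chn2, Dhrs3, Cyp26b1 and Rarb in the 30 libraries, in CPM on linear axes from 0, by diet with sham left and Glenn right (points, libraries; circles, names in the 300s; triangles, names from 598 to 606; bars, group means). Maob is higher after Glenn surgery on the excess diet and lower on the control diet, while Cyp26b1, Dhrs3 and Rarb are lower after Glenn surgery on each diet.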

How the data were processed

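RNA was measured by sequencing of CD31+ microbead-sorted cells from rat lungs, after extraction with a PureLink kit and amplification with a SMART-Seq kit, per the labels' protocols. The authors deposited 1 table of estimated counts per gene for 30 libraries, and 13.6% of its values are not whole. The submitters' processing notes name FastQC, Trim Galore, STAR, Salmon and Picard and the builds mRatBN7.2 and rn7. Counting and strand settings are not given in the sources used here. Neighbouring, antisense and near-identical genes may therefore share reads.

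Counts were rounded, and genes were kept at a minimum count of 10 and a total of 15 (16171 of 30562 rows). The quasi-likelihood test of edgeR 4.0.16 (R 4.3.3, TMM scaling) was fitted to all 30 libraries with 6 group means and a name series term. P-values were adjusted by Benjamini and Hochberg over all genes tested, with a threshold of 0.05. The Glenn effect on the excess diet was also compared with that on the other diets by contrasts of the same fit. CPM values are counts scaled to TMM-adjusted library sizes, and SE is the log2 change divided by the root of F. The fit was tested on simulated data that held no effect of the name series or of the other groups. Of 50 genes changed 1.5-fold 24 were recovered for Glenn against sham on the excess diet, and of 50 changed 2-fold 30. For the difference from the mean of the other diets 18 and 26 were recovered. Small differences between diets can therefore be missed. Named genes were taken from the 15 with the smallest adjusted p and the 10 with the largest change and no overlap in each direction. Further sources were the 5 leading genes of each difference between diets, all these at a mean of at least 5 CPM, and members of gene lists. Not every gene of these sets is named in the text. The members and lists were chosen with earlier results of these data known. Of the list symbols, 15 could not be matched and 2 had several rows, and these are not reported. Alternatives used limma 3.58.1 (voom), DESeq2 1.42.0, other scalings and terms, no filter, subsets of libraries and each excess-diet library left out. Deviations of equally numbered sham and Glenn libraries had correlations of -0.038 to 0.124. Sham and Glenn library 1 were each other's best partner, and no other equal number was. Promoters are from RefSeq (GRCr8), where Smad6, Acvrl1 and Tmem100 had no entry.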

Additional observations from a re-analysis of the deposited data

Results flagged for a closer look

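Single libraries stood apart from the other 4 of their group in 27 of 394 gene or marker sets examined, where chance would give about 19.7. For each, the distance from that library to its closest neighbour is given as a share of the group's range, with a limit of 0.71. Glenn library 1 lay toward the sham level in Smad6 (share 0.793, 232 against 99.4 to 127 CPM), Eng (0.726, 1330 against 749 to 908 CPM), Smad1 (0.761, 242 against 290 to 304 CPM) and Rara (0.773, 80.2 against 62.5 to 66.5 CPM). The same library was high in Spns2 (0.828, 428 against 230 to 264 CPM). Glenn library 5 was high in Igfbp4 (0.879, 710 against 302 to 351 CPM), Col8a1 (0.732, 109 against 44.1 to 61.4 CPM) and Slc14a1 (0.727, 21.8 against 4.88 to 9.51 CPM). It was low in Kdr (0.749, 525 against 696 to 753 CPM) and Skil (0.816, 68.8 against 103 to 110 CPM). The other Glenn libraries apart were library 2 in Amotl2 (0.8, 172 against 214 to 225 CPM), library 3 in Ndrg1 (0.814, 90.5 against 120 to 127 CPM), and library 4 in Serpina1 (0.764, 5.8 against 9.03 to 10 CPM) and Plxna1 (0.769, 63.3 against 56.6 to 58.1 CPM).

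Among sham libraries, library 1 was high in Tubb4a (0.75, 35.1 against 16.1 to 20.8 CPM), Adm (0.736, 15.2 against 9.06 to 10.7 CPM) and Bmp2 (0.743, 26.8 against 19.4 to 21.3 CPM). It was low in the sum of venous markers (0.807, 2670 against 3040 to 3120 CPM). Sham library 3 was low in C4b (0.809, 72 against 117 to 127 CPM) and high in Adamts4 (0.742, 3.51 against 1.67 to 2.15 CPM), Foxc1 (0.798, 3.84 against 2.49 to 2.76 CPM), Has3 (0.722, 0.627 against 0.248 to 0.353 CPM) and Plpp3 (0.712, 316 against 278 to 289 CPM). Sham library 2 was high in Col8a1 (0.801, 14.7 against 11.3 to 11.9 CPM), and library 4 was low in the sum of endothelial markers (0.714, 8460 against 9130 to 9410 CPM). Sham library 5 was low in Id1 (0.771, 198 against 228 to 236 CPM) and high in Scd, a fatty acid desaturase (0.822, 1310 against 132 to 341 CPM).

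The Glenn effect differed between diets by edgeR's test of that difference in 3 genes. Against the mean of the other diets the log2 difference was 0.942 for Maob and 0.66 for Rftn1, and against the control diet it was 0.982 for Maob, 0.846 for Rftn1 and 0.889 for Chn2. Apart from Rftn1 against the control diet, whose call was lost only with no term for the name series, each of these calls was lost without Glenn library 1.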

How the results depend on the processing

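All 3549 genes called for Glenn against sham on the excess diet kept their direction in every alternative that gave a value. Their number was 2270 among libraries named in the 300s (1378 higher, 892 lower) and 1960 in a fit of the 10 excess-diet libraries with the name series, which was added after seeing the data. Leaving out each excess-diet library gave 2865 to 3575. Of 312 called genes followed through the alternatives, 212 passed the threshold in all of them and 100 lost it in at least 1, and 0 reversed. For the difference of the Glenn effect between the excess diet and the mean of the others, the count of 2 was 1 with no series term, 0 with the RT1-CE16 level as the term, 23 with DESeq2 and 5 with voom, and 0 to 3 with a library left out. Against the control diet the count of 3 was 0 with no series term, 5 among libraries named in the 300s, 55 with DESeq2 and 22 with voom, and 1 to 7 with a library left out. Against the deficient diet it was 0, and 1 with DESeq2. The causes were not tested. With the replicate number as a block, 3389 genes were called (2988 shared with the fit without it), and the differences between diets gave 1, 3 and 0; Rftn1 against the mean of the other diets then had an edgeR adjusted p of 0.0651. The labels do not say whether equal replicate numbers mark a shared animal or batch. Replicate 1 was male by Ddx3y and replicate 2 female in every group, and both were low in RT1-CE16 throughout. Counting depth limits genes at about 1 CPM or lower, such as Gdf2 and Stra6, and 5 libraries a group limit every test.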
